A study of Mus musculus with 6 samples.

Results

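The cytosolic ribosomal protein genes were followed across 6 lists of open chromatin peaks from mouse adipocytes, 2 each from beige, white and brown cultures. Members were the protein-coding genes of the GENCODE annotation of mm10 whose symbol is Rpl or Rps followed by a number and at most one letter, with Rplp0, Rplp1, Rplp2 and Rpsa added. The rule gave 80 of 21851 protein-coding genes, 49 for the large ribosomal subunit and 31 for the small one, spread over 19 chromosomes with 14 on chromosome 7 and 4 on X. All cultures were grown from the stromal vascular fraction, the preadipocyte-containing cells left when fat is digested, of male wild-type C57BL/6J mice aged 3 to 4 weeks, and were collected on day 7 of differentiation. Beige and white cultures came from inguinal fat and brown ones from brown adipose tissue. By the labels all media held insulin at 5 μg/ml and IBMX at 0.5 mM, whereas the methods of the study give lower insulin levels that differ between beige and white. Beige and brown media also held dexamethasone at 5 μM, T3 (a thyroid hormone) at 1 nM and the PPARγ agonist rosiglitazone at 1 μM, whereas white medium held dexamethasone at 1 μM with neither T3 nor rosiglitazone. Beige and white therefore differ in several agents at once, and brown differs from white in tissue and medium together, so these cannot be told apart. The brown libraries are labelled in another style, and the study describes no brown ATAC-seq libraries. Whether they were made together with the others is not known. Any such difference could not be told apart from brown itself, against beige as well as white. How many mice were pooled in a culture was not given in the sources used here.

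ATAC-seq cuts DNA where a transposase can reach it, and a peak marks a stretch that was cut more than its surroundings. Ribosomal proteins surround and stabilise the ribosomal RNAs, and every cell needs them in near equal amounts, so their genes are among the most steadily transcribed of all. Most are single working copies with short, CpG-rich promoters that lack a TATA box. Transcription of many begins at a C within a run of pyrimidines, which gives the mRNA a 5′ terminal oligopyrimidine (TOP) tract through which mTOR and LARP1 control its translation.

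The start sites show how closely the annotation meets that pattern. A C at the reference start site followed by at least 4 pyrimidines was held by 8 of 80 members and by 2.27% of all protein-coding genes. With every annotated start site of a gene allowed it was 20 of 80 members, against 4.21% of all genes. Of the 8 promoters, 6 are given here on the strand of the gene, from 40 bp before the start to the twentieth transcribed base, since they carry the start-site signature of the family. Coordinates are mm10, the sequence is that of the RefSeq copy of the same build, and capitals mark the pyrimidine run from the first transcribed base.
Rpl36 chr17:56613376-56613435 plus strand: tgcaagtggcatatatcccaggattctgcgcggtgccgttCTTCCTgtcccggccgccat
Rpl37 chr15:5116605-5116664 plus strand: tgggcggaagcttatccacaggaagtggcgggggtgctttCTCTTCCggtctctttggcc
Rpl37a chr1:72711250-72711309 plus strand: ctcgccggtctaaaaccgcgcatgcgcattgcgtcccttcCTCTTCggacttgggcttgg
Rpl4 chr9:64173335-64173394 plus strand: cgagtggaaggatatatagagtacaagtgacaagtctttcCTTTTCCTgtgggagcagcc
Rps21 chr2:180257337-180257396 plus strand: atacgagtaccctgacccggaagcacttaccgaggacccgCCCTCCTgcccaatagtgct
Rps24 chr14:24490678-24490737 plus strand: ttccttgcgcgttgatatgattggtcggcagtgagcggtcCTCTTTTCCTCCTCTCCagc
Among these 6 the run was longest in Rps24, with 17 pyrimidines, and 6 to 8 pyrimidines long in the others.

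Beyond the start site, the window from 250 bp before to 50 bp after the reference start was searched on both strands for short consensus letters. The ETS-family letters CCGGAAG occurred in 23 of 80 members (28.7%), in 11.2% of all protein-coding promoters and in 16.4% of those with a promoter peak in all 6 libraries. The palindrome of the ZBTB33-like consensus, 10 letters with a central CGCG, occurred in 6 members (7.50%) in 0.618% of all promoters and in 0.930% of those with a peak in all 6. The CRE letters TGACGTCA were found in 5 members (6.25%, against 2.51% of all promoters and 3.43% of those with a peak in all 6) and the YY1 letters AAGATGGC in 5 (against 3.05% and 4.24%). The SP letters GGGCGGGG were found in 17 members (21.2%), in 23.2% of all promoters and in 33.3% of those with a peak in all 6, and the NFY letters CCAAT in 25 members (31.2%), in 38.6% and in 37.7%. The E-box CACGTG was found in 9 members (11.2%, against 7.76% and 9.85%) and the NRF1 consensus in 5 (against 6.09% and 9.41%). No member held TATAAA at 40 to 20 bp before the start on the sense strand, against 2.44% of all promoters and 0.982% of those with a peak in all 6. A match is a description of the letters and does not show that a factor binds there. The median GC content of the window was 55.3% for the members, 55.7% for all protein-coding genes and 61.0% for all genes with a promoter peak in all 6 libraries.

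The ETS letters of members that recur in the comparisons are shown in capitals from 150 bp before to 20 bp after the reference start. Rpl8 had one of the widest gaps between white and the other groups, Rpl39l the lowest rank of all, Rpl15 one of the highest, and Rps18, Rpl39l and Rps21 held 2 copies of the letters in this stretch.
Rpl8 chr15:76903928-76904097 plus strand: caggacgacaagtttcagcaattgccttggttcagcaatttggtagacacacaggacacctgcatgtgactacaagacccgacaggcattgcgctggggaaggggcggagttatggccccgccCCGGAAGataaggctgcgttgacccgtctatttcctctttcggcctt
Rpl39l chr16:10170076-10170245 plus strand: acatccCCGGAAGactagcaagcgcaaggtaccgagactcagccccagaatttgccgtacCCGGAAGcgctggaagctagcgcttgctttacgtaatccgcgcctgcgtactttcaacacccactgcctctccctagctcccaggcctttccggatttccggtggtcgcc
Rpl15 chr14:18271048-18271217 minus strand: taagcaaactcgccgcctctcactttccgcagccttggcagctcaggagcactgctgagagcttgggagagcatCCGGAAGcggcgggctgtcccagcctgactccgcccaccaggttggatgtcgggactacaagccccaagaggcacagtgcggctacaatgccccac
Rps18 chr17:33955658-33955827 minus strand: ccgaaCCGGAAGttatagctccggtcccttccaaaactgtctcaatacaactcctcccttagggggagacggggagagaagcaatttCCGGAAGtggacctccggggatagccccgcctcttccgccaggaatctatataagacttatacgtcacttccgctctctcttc
Rps21 chr2:180257227-180257396 plus strand: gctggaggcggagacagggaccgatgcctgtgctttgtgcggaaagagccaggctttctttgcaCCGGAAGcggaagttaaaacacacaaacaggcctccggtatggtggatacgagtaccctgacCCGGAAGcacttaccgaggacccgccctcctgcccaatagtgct
The next 3 promoters are shown for the palindrome, which the capitals mark. It ran from -34 to -25 in Rpl10a, from -43 to -34 in Rpl26 and from -1 to 9 in Rps28, counted in bp from the reference start with 1 as the first transcribed base.
Rpl10a chr17:28328418-28328587 plus strand: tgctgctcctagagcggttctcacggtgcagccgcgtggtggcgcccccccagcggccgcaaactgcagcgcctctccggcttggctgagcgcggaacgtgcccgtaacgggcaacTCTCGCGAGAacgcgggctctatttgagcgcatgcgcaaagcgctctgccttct
Rpl26 chr11:68901433-68901602 plus strand: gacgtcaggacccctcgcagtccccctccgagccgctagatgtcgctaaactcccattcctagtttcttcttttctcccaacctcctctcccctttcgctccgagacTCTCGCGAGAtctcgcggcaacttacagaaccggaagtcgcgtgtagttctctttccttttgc
Rps28 chr17:33824543-33824712 minus strand: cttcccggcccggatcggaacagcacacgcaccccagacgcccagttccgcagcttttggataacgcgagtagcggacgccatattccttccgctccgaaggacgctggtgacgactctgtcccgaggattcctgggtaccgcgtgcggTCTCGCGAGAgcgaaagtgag
In Rps28 the palindrome thus lay across the annotated start itself, and in the other 2 promoters upstream of it.

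A promoter peak, defined as a peak whose strongest summit lay within 1 kb of an annotated start site of the gene, was called for nearly every member. It was present for 78 of 80 members (97.5%, 95% Clopper-Pearson interval 91.3 to 99.7%) in beige 1, beige 2, white 1, brown 1 and brown 2, and for 77 (96.2%, 89.4 to 99.2%) in white 2. In all 6 libraries it was present for 77 members, compared with 62% of all protein-coding genes. The lists held 109143 to 127490 peaks and no read counts, and the intervals cover counting error only. The study states similar numbers of reads for the beige and white libraries, with a larger mapped share and so more mapped reads in white. Its part in the comparisons was not tested. All 31 small-subunit members and 46 of 49 large-subunit members had a peak in every library, as did all 78 mitochondrial ribosomal protein genes. Of 294 annotated pseudogenes of these families, which are mostly reverse-transcribed copies without their own promoter, 9 (3.06%) had a peak within 1 kb of their 5′ end in all 6 libraries.

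The 3 exceptions were Rpl3l, Rpl10l and Rpl7. Rpl3l (chr17:24727820-24736143, plus strand), the paralog of Rpl3 used in striated muscle, had no promoter peak in any library. Its nearest summit lay 3376 to 3430 bp upstream in all 6, and the 5′ end of Ndufb10, on the other strand, lies 3342 bp upstream. Rpl10l (chr12:66283379-66284401, minus strand), the intronless testis paralog of X-linked Rpl10, also had none. Its nearest summit was 6.31 kb away in brown 2 and 106 to 317 kb away in the other 5 libraries. By contrast the third tissue-restricted paralog, Rpl39l, known from testis, had a promoter peak in all 6 libraries.

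Rpl7 (chr1:16101295-16104662, minus strand), a protein of the large subunit, was missed only in white 2. An interval covered its start site in every library. In beige 1 and beige 2 that interval was 1497 and 1690 bp wide and its strongest summit lay 323 and 325 bp upstream of Rpl7. In white 1, white 2, brown 1 and brown 2 the interval was 1712, 1728, 1682 and 1581 bp wide and its strongest summit lay 1151, 1144, 1147 and 1163 bp upstream, within 51 bp of the 5′ end of the divergent gene Rdh10 (1112 bp upstream, on the plus strand). The same open stretch was thus listed under different leading summits, and the remaining promoter peak of Rpl7 in white 1, brown 1 and brown 2 was a narrow one of 207 to 236 bp inside the gene, at 250 to 268 bp. White 2 listed no such peak. With any summit of the interval allowed to count, 78 members had a promoter peak in all 6 libraries.

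Summits sat at the start sites. The median summit lay 17 and 23 bp upstream of the nearest annotated start in beige, 25 and 9 bp upstream in white, and 23 and 20 bp upstream in brown. Over all genes these medians were 12 to 24 bp upstream. A summit within 100 bp of the start was found for 74.0% to 84.4% of the members, depending on the library, compared with 56.9% to 64.0% of all genes. In each library 33 to 45 strongest summits lay outside the transcripts and 32 to 42 in a UTR exon, while 0 to 2 lay in an intron and none in a coding exon. The interval covered an annotated start site for 72 to 76 members. A protein-coding gene started on the other strand within 1 kb of 13 members, and 29 members held a snoRNA gene on the same strand. The same shares over all genes were not counted.

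**Figure D1:**
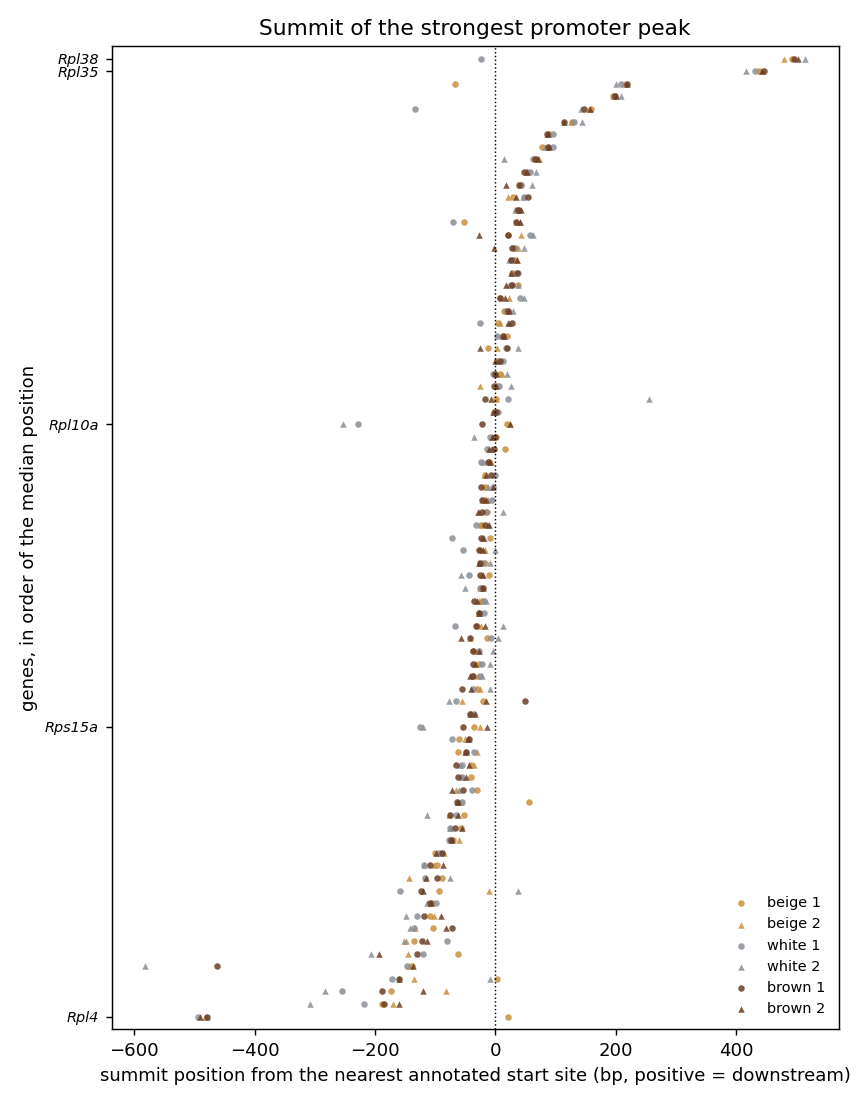
Summit position of the strongest promoter peak, in bp from the nearest annotated start site with downstream positive, for the 77 members with a promoter peak in all 6 libraries, 1 row a gene in order of the median position, with 5 genes labelled, coloured by group with a circle for replicate 1 and a triangle for replicate 2. Most points lie near 0; Rpl35 and Rpl38 lie over 400 bp downstream and Rpl4 over 400 bp upstream in at least 5 libraries.

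By mean position over the 6 libraries, the summits farthest from an annotated start belonged to Rpl35, Rpl38 and Rpl4. For Rpl35, whose protein lies near the peptide exit of the large subunit, the summit was 417 to 446 bp downstream of the single annotated start in all 6 libraries. For Rpl38, a protein needed for translation of certain Hox mRNAs, it was 479 to 515 bp downstream in 5 libraries and 24 bp upstream in white 1, where the peak at the start outranked the downstream one. For Rpl4 it was 480 to 494 bp upstream in 5 libraries and 21 bp downstream in beige 1. The divergent gene Zwilch starts 271 bp from Rpl4. The single summit farthest away was that of Rpl10, at -583 bp in white 2, and it lay at -463 bp in brown 1 and at -137 to -147 bp in the other 4 libraries. White summits stood apart in Rpl10a, Rps15a and Rpl37. No such shift was seen in the median summit of the members, which in white lay 25 and 9 bp upstream, on both sides of the other libraries. The Rpl10a summit lay 229 and 253 bp upstream in white, against positions from 23 bp upstream to 24 bp downstream in beige and brown. The Rps15a summit lay 125 and 121 bp upstream in white and 14 to 54 bp upstream in the other 4 libraries. The Rpl37 summit lay at -255 and -283 bp in white and between -82 and -189 bp in beige and brown. Rpl10a, Rpl37 and the Rpl10 summit were chosen after their values were seen.

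To compare strength, each peak was ranked within its own list by fold enrichment, which sets the pileup at its summit against nearby background, and given a percentile in which 100 is the strongest peak of the list. The median percentile over the 77 members was 93.4 in beige 1, 91.5 in beige 2, 88.3 in white 1, 85.03 in white 2, 93.7 in brown 1 and 93.7 in brown 2. By group this was 92.4 ± 1.4 for beige, 86.7 ± 2.3 for white and 93.7 ± 0.015 for brown (mean ± SD of library medians, n = 2). Both white medians were below all 4 others. For all 13547 genes with a promoter peak in every library the medians were 89.2 and 87.9 in beige, 88.7 and 85.8 in white, and 89.4 and 90.8 in brown. The members were thus 3.55 to 4.17 points above the median gene in beige and 2.87 to 4.24 points above it in brown, and 0.388 and 0.722 points below it in white. Ranked by -log10 q they were above it in white too, by 0.82 and 1.17 points, and by 2.75 and 2.81 points in beige and 2.38 and 2.59 points in brown. The gap between white and the other groups was wider among the weaker promoters. The value below which 25% of the members ranked was 88.3 and 84.3 in beige, 78.5 and 76.1 in white, and 86.4 and 88.8 in brown. In white, 15 members ranked below the 75th percentile in each library, against 5 and 9 in beige and 4 and 5 in brown. The shares of all genes below it were not counted for single libraries. By mean percentile over the 6 libraries, 8 of the 77 members ranked below 75, as did 3455 of the 13547 genes.

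**Figure D2:**
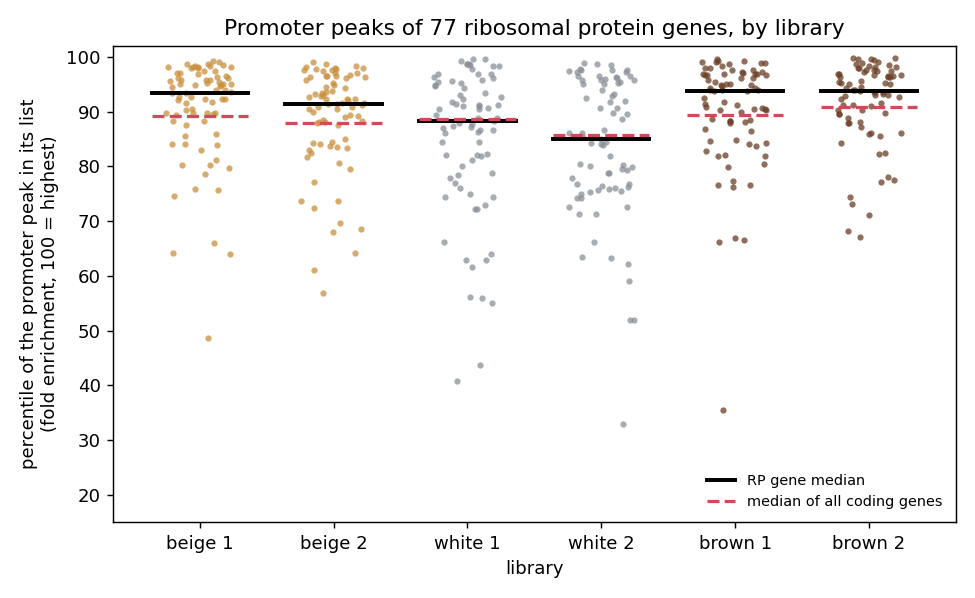
Percentile of the promoter peak within its list (fold enrichment, 100 the highest) for 77 ribosomal protein genes in each library, 1 point a gene. Black lines are the medians of these genes (93.4 and 91.5 in beige, 88.3 and 85.03 in white, 93.7 and 93.7 in brown) and dashed lines those of all genes with a promoter peak in all 6 libraries; by this rank the black line is above the dashed one in beige and brown and not in white, whereas by -log10 q it is above in white too, by 0.82 and 1.17 points.

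The strongest promoters were picked by their mean percentile over the same 6 libraries, so high ranks in all groups follow from that choice. The 5 highest by mean percentile were Rpl27, Rps13, Rpl30, Rpl15 and Rpl34, all between 93.7 and 99.8 in every library. Rpl27 had 99.2 and 97.9 in beige, 99.2 and 98.6 in white, and 98.6 and 99.7 in brown. Rpl15, which holds an ETS match, had 97.1 and 96.3 in beige, 99.6 and 97.3 in white, and 99.0 and 99.6 in brown, so both white values were above both beige ones by a small margin. The p53-inducible paralog Rps27l was also near the top, at 95.4 to 99.1. Among the 5 lowest were Rpl39l, Rpl36, Rpl23a and Rpl38. Rpl39l (chr16:10170226-10174911) had 48.6 and 56.9 in beige, 43.8 and 33.0 in white, and 35.4 and 73.1 in brown, where the brown libraries lay far apart. Rpl36 had 66.1 and 61.1 in beige, 54.98 and 51.9 in white, and 66.2 and 71.2 in brown, with white lowest and the groups apart. Rpl23a had 63.3 to 69.6 with little spread across the groups.

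Beige was compared with white to ask how the browning medium goes with promoter opening in cells of 1 depot. Both beige percentiles were above both white ones for 41 of 77 members (53.2%), compared with 28.6% of all genes. The opposite held for 4 members (5.19%), compared with 19.8%. The mean beige percentile was higher for 62 members and the mean white percentile for 15, so that beige was higher for 80.5% of members and for 56.9% of all genes, and the median difference was 4.30 points for the members and 0.69 for all genes. With 2 libraries against 2 an exact permutation test allows no two-sided p below 0.33, so no member was tested. The study describes the 2 libraries of a group as biological replicates. Ranked by -log10 q instead of fold enrichment, 49 members (63.6%, against 35.7% of all genes) were higher in beige and 2 (2.60%, against 17.4%) in white. Ranked among promoter peaks alone, it was 33 (42.9%, against 23.6%) and 12 (15.6%, against 27.0%), and the median difference was 4.79 points for the members and -0.50 for all genes.

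The largest gaps with beige above white were in Rpl29, Rps16 and Rps15a. Rpl29 (chr9:106429454-106431568), a large-subunit protein that also binds heparin, had 93.7 and 95.2 in beige, 77.05 and 76.4 in white, and 94.0 and 94.99 in brown. The white values were lower than the other 4 by at least 16.6 points. Rps16, a small-subunit protein whose tail reaches the P site, had 90.3 and 92.9 in beige, 76.0 and 76.8 in white, and 90.4 and 93.6 in brown. Rps15a, also of the small subunit, had 89.6 and 87.6 in beige, 72.2 and 74.2 in white, and 84.3 and 89.8 in brown. For all 3, white stood below both other groups with no overlap. None of the 3 held CCGGAAG in the promoter window. Their promoters are shown with the shorter letters GGAAG, on either strand, in capitals.
Rpl29 chr9:106429304-106429473 plus strand: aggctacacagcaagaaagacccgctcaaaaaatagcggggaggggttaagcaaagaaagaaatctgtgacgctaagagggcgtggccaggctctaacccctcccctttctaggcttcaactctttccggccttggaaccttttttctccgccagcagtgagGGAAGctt
Rps16 chr7:28350502-28350671 plus strand: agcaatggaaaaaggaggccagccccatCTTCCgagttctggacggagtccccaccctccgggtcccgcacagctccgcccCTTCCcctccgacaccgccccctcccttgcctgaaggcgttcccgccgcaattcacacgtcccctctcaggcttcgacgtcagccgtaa
Rps15a chr7:118116169-118116338 minus strand: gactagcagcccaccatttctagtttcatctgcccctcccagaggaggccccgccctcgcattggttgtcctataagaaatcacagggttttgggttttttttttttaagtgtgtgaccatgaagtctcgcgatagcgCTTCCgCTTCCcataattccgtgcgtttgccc
GGAAG is frequent in itself, and from 100 bp before to 50 bp after the start it was found in 59 of 80 members (73.7%) and in 49.8% of all promoters.

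**Figure D3:**
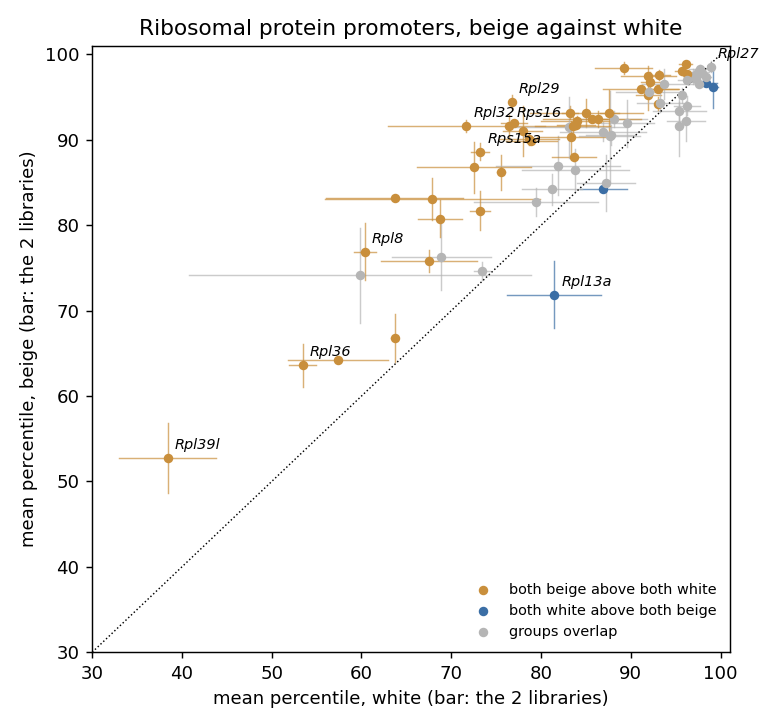
Mean percentile in beige against that in white for the 77 members, with bars from one library to the other; orange marks the 41 members with both beige values above both white ones and blue the 4 with the opposite. Points leave the diagonal upwards below about the 95th percentile, and Rpl13a is the member farthest below the line.

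Rpl32 and Rpl8 had large mean differences, though Rpl32 varied within white. Rpl32, with its TOP start and an ETS match, had 92.4 and 90.9 in beige, 62.9 and 80.4 in white, and 88.1 and 86.1 in brown. Rpl8 had 80.2 and 73.6 in beige, 61.6 and 59.2 in white, and 82.1 and 78.1 in brown. The members with white above beige were Rpl13a, Rpl15, Rpl10 and Rpl30, and the gap was under 0.5 points in each. Among the members with beige above white, the gap was also under 0.5 points in Rpl22, Rps27a, Rpl39, Rplp0 and Rpl23a. Rpl13a, which also acts outside the ribosome as a repressor of inflammatory mRNAs, had 75.8 and 68.0 in beige, 86.7 and 76.2 in white, and 81.9 and 86.2 in brown.

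The difference was also read by level. Percentiles end at 100, so promoters near the top can hardly differ between groups. Among the 22 members with a mean percentile above 95, the median beige minus white difference was 0.15 points, against 0.34 for all 3406 such genes. It was 4.62 points for the 17 members at 90 to 95, 7.36 for the 18 at 85 to 90, 11.4 for the 12 at 75 to 85 and 8.78 for the 8 below 75. Over all genes it was between 1.03 and 1.33 in those 4 ranges. By GC content of the promoter it was 3.20 points for the 6 members up to 45% GC, 5.53 for the 9 at 45 to 50%, 2.37 points for the 19 members at 50 to 55% GC, 7.80 for the 25 at 55 to 60%, 4.78 for the 14 at 60 to 65% and 1.27 for the 4 above 65%. Over all genes it was -0.75, 0.06, 0.50, 0.88, 0.83 and 1.02 in the same ranges, so members and all genes were close above 65%. Members with an ETS match had a median difference of 5.53 points (n = 23) and those without it 3.80 (n = 54). The corresponding values over all genes were 0.72 and 0.69. Both beige values were above both white ones for 12 of the 23 and 29 of the 54, which are similar shares. Over all genes the share was 28.6%. With the palindrome the median was 5.58 (n = 6) against 4.09 (n = 71) without it (1.61 against 0.68 over all genes). With a pyrimidine initiator at any start site it was 5.31 (n = 20) against 3.35 (n = 57) (0.33 against 0.71 over all genes). These contrasts were not tested. Large-subunit members differed by 3.72 and small-subunit members by 4.91 points.

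**Figure D4:**
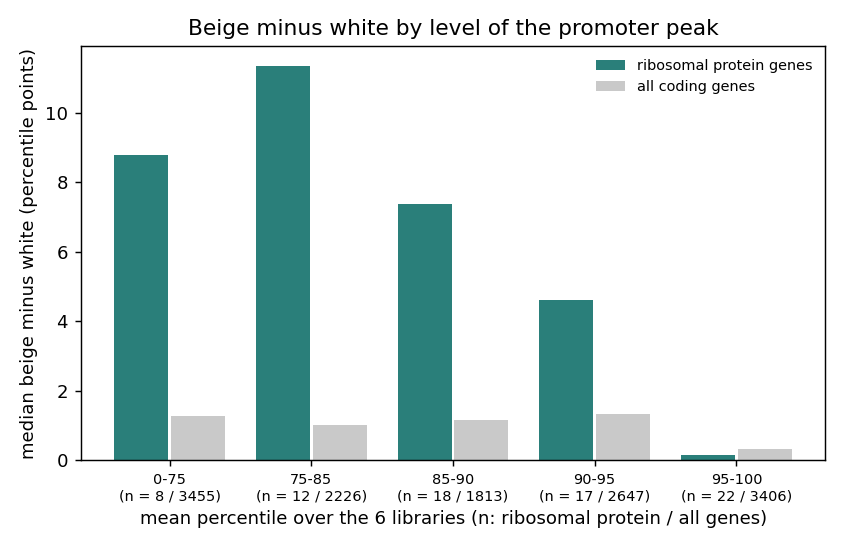
Median beige minus white difference in percentile points, for members and for all protein-coding genes, by the mean percentile of the promoter peak over the 6 libraries. Members stand above all genes in the 4 ranges below 95 (8.78, 11.4, 7.36 and 4.62 points) and not above 95 (0.15 points), where the scale ends at 100.

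The members with other roles in the cell gave a mixed picture. Rplp0, the base of the acidic stalk that recruits elongation factors, had 94.8 and 91.5 in beige, 91.3 and 78.8 in white, and 96.6 and 98.4 in brown. Its partners Rplp1 and Rplp2 differed in level, with 91.3 to 98.3 for Rplp1 and 72.1 to 88.0 for Rplp2, and Rplp2, unlike Rplp1, had both white values below all others. Rpl5 and Rpl11, which carry 5S RNA and restrain MDM2, had 96.1 to 98.2 and 86.7 to 94.6, with the beige and white values of Rpl11 overlapping. Rps6, the substrate of S6 kinase, had 95.5 and 93.3 in beige, 90.6 and 95.8 in white, and 96.8 and 98.7 in brown. Rpsa, also known as the laminin receptor, had 93.4 and 91.5 in beige, 87.4 and 85.4 in white, and 95.1 and 96.5 in brown. Rps27a, made as a fusion with ubiquitin, had 92.9 to 95.04 in all libraries. Rps19, the gene most often mutated in Diamond-Blackfan anaemia, had 88.3 and 81.7 in beige and 90.4 and 84.0 in white, which overlapped. Rpl41, the smallest ribosomal protein, had 81.1 and 84.4 in beige and 86.4 and 72.6 in white.

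Brown cultures, which shared the beige medium, were compared with both. Both brown percentiles were above both white ones for 43 members (55.8%), compared with 34.9% of all genes, and the opposite held for 3 (3.90%), compared with 14.9%. The median brown minus white difference was 4.52 points for the members and 1.70 for all genes. The comparison shares its white libraries with that of beige. The widest gaps were in Rpl29, Rpl8 and Rps16. Against beige, both brown values were higher for 27 members (35.1%), compared with 33.4% of all genes, and both beige values for 12 (15.6%), compared with 17.3%, so these shares were near those of any gene. Ranked by -log10 q the order turned, with 7 members (9.09%, against 15.4%) higher in brown and 43 (55.8%, against 34.2%) in beige. Rpl13a, Rpl27a and Rpl18 had the widest gaps towards brown by fold enrichment. Rpl27a had 93.4 and 91.5 in beige and 97.1 and 97.5 in brown. Rpl37a had one of the 3 widest gaps towards beige, with 98.3 and 96.6 in beige and 90.6 and 93.5 in brown. Rpl37a and Rpl36a were among the 3 members with both white values above both brown ones. Rpl37a had 96.3 and 97.7 in white.

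**Figure D5:**
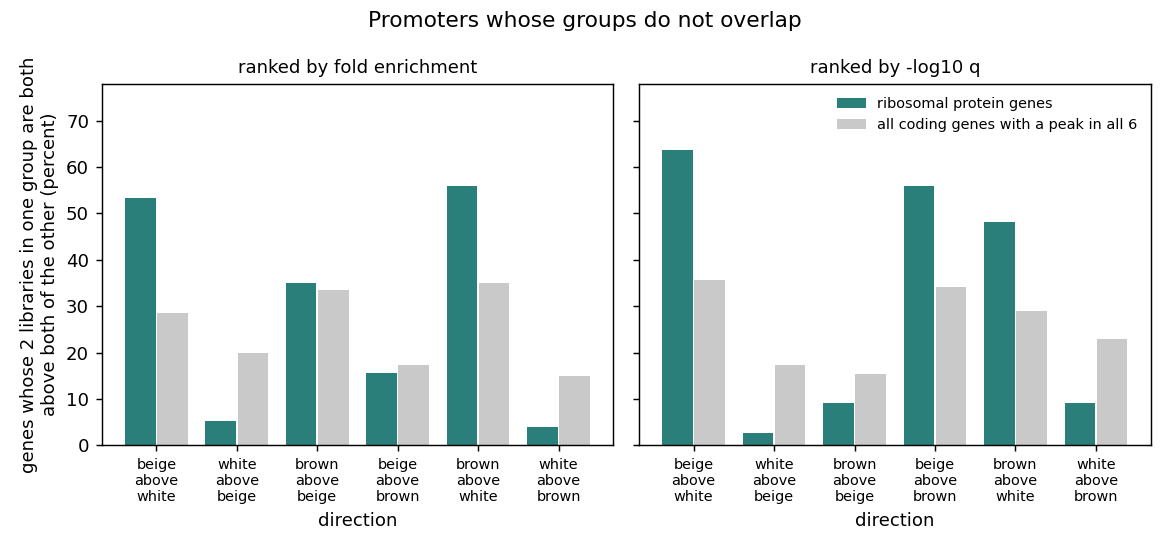
Percent of genes whose 2 libraries of one group both ranked above both of another, for the 77 members and for all 13547 genes with a promoter peak in all 6 libraries, ranked by fold enrichment (left) and by -log10 q (right). Members exceed all genes for beige above white (53.2 against 28.6% by fold enrichment) and brown above white (55.8 against 34.9%) in both panels; brown and beige change order between the panels.

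Peaks over the members were also narrower in white. The median width was 790 and 842 bp in beige, 627 and 670 bp in white, and 763 and 731 bp in brown. Over all genes it was 800 and 854 bp in beige, 681 and 756 bp in white, and 740 and 707 bp in brown. Both beige widths exceeded both white ones for 50 of 77 members (64.9%), compared with 37.2% of all genes, and the opposite held for 3 (3.90%), compared with 6.86%. Rpl29 intervals were 1110 and 1192 bp wide in beige, 525 and 742 bp in white, and 1097 and 841 bp in brown. The widest on average were Rpl7a (1102 bp), Rps29 and Rps19 (both 1083 bp), and the narrowest were Rpl39l (285 bp), Rps26 (305 bp) and Rpl19 (352 bp). Rps26 kept a width of 291 to 316 bp in all 6 libraries while ranking between 93.8 and 97.4, so a narrow interval was not always a low one. Intervals with several summits were counted for 67 and 68 members in beige (85.9 and 87.2%, against 72.7 and 75.1% of all genes with a promoter peak), for 53 and 57 in white (67.9 and 74.0%, against 63.0 and 72.2%) and for 64 and 56 in brown (82.1 and 71.8%, against 66.2 and 62.0%).

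Genes that work with the ribosome were read from lists of the same pathway. The mitochondrial ribosomal proteins (78 genes) had median percentiles of 96.2 and 96.3 in beige, 93.8 and 95.3 in white, and 94.6 and 94.99 in brown, with a median beige minus white difference of 1.60 points. Both beige values were above both white ones for 36 of these 78 (46.2%, against 28.6% of all genes) and the opposite held for 6 (7.69%, against 19.8%). The 20 ribosome biogenesis genes, which make and process rRNA, differed by 1.75 points, with 10 of the 20 (50%) higher in beige and 0 in white. The 15 translation factors with TOP mRNAs, such as Eef1a1 and Pabpc1, differed by 0.32 points, with 5 (33.3%) higher in beige and 4 (26.7%) in white. The 9 genes that control TOP mRNAs, such as Mtor and Larp1, differed by 1.82 points, with 4 (44.4%) higher in beige and 0 in white. The 7 ribosome proteins whose symbols the rule misses, such as Fau and Rack1, differed by 0.52 points, with 1 (14.3%) in each direction. Over all genes the median difference was 0.69 points, and 28.6% were higher in beige and 19.8% in white. No difference between these lists and the members was tested.

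The adipocyte label was checked on promoter peaks of marker genes, which are not expression. All 7 adipocyte markers, among them Adipoq and Pparg, had one in every library. Depending on the library, 2 or 3 of 6 macrophage, 3 or 4 of 5 endothelial, 3 or 4 of 5 progenitor and 0 to 2 of 5 muscle markers had one. The adipocyte markers had median percentiles of 46.1 and 53.8 in beige, 76.6 and 60.3 in white, and 63.5 and 75.3 in brown. By this rank, of fold enrichment, their medians were lower in beige than in white, unlike those of the ribosomal protein genes. Both white values were above both beige ones for 3 of the 7 (42.9%, against 19.8% of all genes). The opposite held for 0 (against 28.6%). By -log10 q the medians were 85.7 and 86.5 in beige, 85.4 and 83.7 in white, and 84.6 and 87.0 in brown. Beige was then not lower than white. The 3 progenitor markers with a peak in every library were again read by fold enrichment. They had 70.5 and 65.3 in beige, 82.0 and 76.5 in white, and 68.5 and 73.0 in brown. The 3 such endothelial markers had 75.9 and 71.8 in beige, 85.6 and 79.0 in white, and 79.0 and 79.8 in brown. The part of cell makeup in the ribosomal protein ranks was not tested.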

How the data were processed

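The 6 ATAC-seq libraries were made from 50000 nuclei each. Reads were trimmed by the authors (Trimmomatic), mapped with BWA to the mm10 build and turned into peaks separately for each library by MACS2, at a q value under 0.05. Each deposited line gives the position of a summit and its interval, the authors' fold enrichment (a ratio of the pileup over the local background) and the deposited -log10 q value. Neither is comparable as signal between libraries, so both were used only as ranks within a list. Summits sharing an interval were merged at the highest -log10 q. Start sites were those of protein-coding transcripts in GENCODE's basic set. The reference start belonged to the APPRIS principal transcript with the longest coding sequence. Where a gene had several promoter peaks, the one with the highest fold enrichment was taken.

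The lists hold no read counts, and comparisons between groups rest on 2 libraries in each, however long the lists are. The study states the read totals of the beige and white libraries, which were not used here; those of the brown libraries were not given in the sources used here. Medians and counts between groups use the 77 members with a promoter peak in all 6 libraries. Groups were taken from the sample labels. No test between groups was made. Named genes were those lacking a promoter peak in some library, the 5 highest and 5 lowest, up to 3 with the largest gaps in each direction, the extremes of width and position, and a fixed list of well-known members. Some named genes and sequences are not reported here. The members and lists were chosen with earlier results of these data known. Tables were handled in pandas 2.3.3 and numpy 2.4.6 under Python 3.11.15, with intervals from scipy 1.17.1 and plots from matplotlib 3.10.9. The peak placement, the ranking and the motif search were tested on simulated data. Alternatives were another rank, stricter q values, other promoter windows, equally long lists, the nearest peak and leaving out each library.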

Additional observations from a re-analysis of the deposited data

How the results depend on the processing

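No paired analysis was possible because no test between groups was made, and nothing in the labels says that a shared replicate number marks a shared culture or day. Of 136 alternative values for 19 results, 91 stayed within 1.5 times the count or within 1 SD of the libraries (pooled over the 3 groups for medians of a group), 43 moved further and 2 changed sign. The number of members with a promoter peak in all 6 libraries was 73 to 78 under every alternative.

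Ranked by -log10 q, the median percentile was 96.9 in beige, 92.9 in white and 95.3 in brown. It was 90.8, 82.5 and 91.9 with peaks at q under 0.00001, and 79.2, 72.8 and 79.0 among promoter peaks only. White was lowest each time. With the peak nearest to the start site the white median was 84.9 and the white width 602 bp. Leaving out a white library gave a white median of 85.03 to 88.2 and a white width of 612 to 670 bp. Counted from the reference start site, the median summit lay at -8.67 bp.

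Beige above white held for 36 members with equally long lists and 43 at q under 0.00001, where the shares of all genes were not counted. It held for 33 (42.9%, against 23.6%) among promoter peaks and 49 (63.6%, against 35.7%) by -log10 q. Without any one library it held for 43 to 56 members. White above beige held for 2 members by -log10 q (2.60%, against 17.4% of all genes) and 12 (15.6%, against 27.0%) among promoter peaks. It held for 1 at q under 0.00001, where the share of all genes was not counted, and for 7 to 14 without one library. Brown above beige held for 7 (9.09%, against 15.4%) by -log10 q and 35 to 44 without one library. Beige above brown held for 43 (55.8%, against 34.2%) by -log10 q, 21 (27.3%, against 28.7%) among promoter peaks and 16 to 22 without one library. Brown above white held for 28 (36.4%, against 18.8% of all genes) among promoter peaks and 50 to 60 without one library. White above brown held for 7 (9.09%, against 23.0%) by -log10 q, 9 (11.7%, against 29.3%) among promoter peaks and 4 to 11 without one library. Leaving out a library leaves 1 sample in its group, so more genes can have groups that do not overlap. Beige was then above white for 55.8 to 72.7% of members and 35.8 to 51.5% of all genes, and white above beige for 9.09 to 17.9% and 26.8 to 41.1%. Brown was above white for 64.9 to 77.9% and 43.1 to 57.6%, white above brown for 5.19 to 14.1% and 21.9 to 30.3%, brown above beige for 45.5 to 57.1% and 42.03 to 50.8%, and beige above brown for 20.8 to 28.6% and 26.1 to 31.5%.

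The median differences, with their alternatives, were added after the data were seen. Beige minus white was 6.399 at q under 0.00001. Brown minus beige was -1.18 by -log10 q, -0.29 among promoter peaks and 2.24 with equally long lists, so its sign depended on the rank. Brown minus white was 1.93 by -log10 q, 3.30 among promoter peaks, 5.90 at q under 0.00001 and 5.98 with equally long lists. The shorter ETS letters GGAAG, from 100 bp before to 50 bp after the start, were found in 59 members. They were found in 49.8% of all promoters and in 51.8% of those with a peak in all 6 libraries. In the same stretch CCGGAAG was found in 19 members and in 12.6% of promoters with a peak in all 6. Within 100 bp of the strongest summit it was found in 26 to 30 members and in 15.1 to 15.6% of all genes, depending on the library. The pyrimidine initiator was found in 25 members within 5 bp of the reference start (31.2%, against 18.4% of all protein-coding genes). At the reference start itself it was found in 8 members (10%, against 2.27%). At any annotated start it was found in 20 members, against 4.21% of all protein-coding genes.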
